A study of Homo sapiens with 4 samples.

Results

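Mitochondrial ribosomal protein genes were described across 4 arrays of MDA-MB-231Br, a breast cancer line derived from MDA-MB-231. Members were the protein-coding genes whose symbol is MRPL or MRPS followed by a digit, with pseudogenes and antisense genes left out. There were 73 of them among 14884 named genes, 48 named for the large (MRPL) and 25 for the small (MRPS) subunit. All 73 passed the filter on low values and were among the 12755 genes tested, so none was lost. MRPL12, MRPS6, MRPS24 and MRPS18C were not analysed here. The 2 shYTHDF3 arrays came from cells transduced with a lentiviral short hairpin RNA against YTHDF3, and the 2 shControl arrays from cells given a control hairpin. Both groups were selected with puromycin and grown in the same medium. The sample titles say MDA-MB-231, where the cell line field and growth protocol say MDA-MB-231Br. YTHDF3 is a reader of N6-methyladenosine, a mark on RNA, in the cytoplasm, and the comparison asks which transcripts differ when it is targeted. Its own level was not analysed here, so the labels have no check from it. Whether the arrays of a group came from separate cultures is not stated, so the p-values cover the spread between these arrays alone, and that spread may be technical.

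Mitochondria keep their own ribosome, the mitoribosome, which translates the few messages of the mitochondrial genome into core subunits of the respiratory chain and ATP synthase. Its RNAs come from the mitochondrial genome, whereas all of its proteins are encoded in the nucleus, made in the cytosol and imported. Part of these proteins have bacterial homologues and part are found only in mitochondria. The symbols do not always follow the structure, since the products of MRPS30 and MRPS18A sit in the large subunit of the human mitoribosome.

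The promoters of members at both ends of the range of fold changes are shown first, so that genes of 1 complex with fold changes of opposite sign can be set beside the motifs they carry. They are the 2 highest and the 2 lowest members that had an entry in the RefSeq promoter table, each with 250 bases before and 50 after the gene's start, 5′ to 3′ on the gene's strand. Capitals mark matches to the motifs searched on both strands: AAGATGGC for YY1 in MRPS7 and MRPS18B, CCGGAAG for ETS factors such as GABPA in MRPL43, and in MRPS33 both GCGCANGCG for NRF1 and the ETS motif on the other strand.

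MRPS7 (GRCh38.p14, chr17:75261629-75261928, plus strand): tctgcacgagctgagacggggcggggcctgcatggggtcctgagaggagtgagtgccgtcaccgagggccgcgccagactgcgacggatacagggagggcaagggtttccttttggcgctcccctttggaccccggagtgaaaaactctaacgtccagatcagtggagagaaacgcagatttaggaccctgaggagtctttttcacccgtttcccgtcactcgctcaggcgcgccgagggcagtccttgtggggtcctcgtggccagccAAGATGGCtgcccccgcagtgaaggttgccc

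MRPL43 (GRCh38.p14, chr10:100987448-100987747, minus strand): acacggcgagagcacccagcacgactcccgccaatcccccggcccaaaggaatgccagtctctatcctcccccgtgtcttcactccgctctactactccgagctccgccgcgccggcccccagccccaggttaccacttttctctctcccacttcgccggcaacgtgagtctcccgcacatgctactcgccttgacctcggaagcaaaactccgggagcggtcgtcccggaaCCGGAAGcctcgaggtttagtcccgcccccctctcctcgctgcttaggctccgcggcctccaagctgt

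MRPS33 (GRCh38.p14, chr7:141014903-141015202, minus strand): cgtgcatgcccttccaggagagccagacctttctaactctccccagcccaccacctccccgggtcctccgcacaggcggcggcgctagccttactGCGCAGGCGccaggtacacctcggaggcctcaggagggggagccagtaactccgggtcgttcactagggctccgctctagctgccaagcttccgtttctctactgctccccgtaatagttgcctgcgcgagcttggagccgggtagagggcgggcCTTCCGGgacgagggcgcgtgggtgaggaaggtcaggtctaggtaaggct

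MRPS18B (GRCh38.p14, chr6:30617590-30617889, plus strand): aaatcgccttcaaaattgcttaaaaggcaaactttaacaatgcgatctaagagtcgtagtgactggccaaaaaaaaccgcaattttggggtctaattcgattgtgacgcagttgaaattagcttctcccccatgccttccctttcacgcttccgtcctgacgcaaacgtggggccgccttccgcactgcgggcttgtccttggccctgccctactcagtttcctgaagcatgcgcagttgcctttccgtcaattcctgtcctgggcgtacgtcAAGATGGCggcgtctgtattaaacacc

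MRPS7 and MRPS18B, from opposite ends of the range, both carried AAGATGGC just after the gene's start, at positions 270 and 274 of the 300 bases counted from the 5′ end. Of the 65 members with a promoter sequence, 28 (43.1%) held the ETS motif, against 10.7% of 27305 promoters of all genes and 14.2% of 15843 promoters of protein-coding genes. The YY1 motif was in 19 members (29.2%), against 3.03% of all and 3.91% of protein-coding promoters. The NRF1 motif was in 12 (18.5%), against 8.05% and 11.02%. The NRF1 and ETS motifs occurred together in 3 members and overlapped in 0 members, and 20 members held none of the 3 motifs. The median GC content was 60.3% for members' promoters and 58.3% for all promoters. Members with and without a motif had close median log2 fold changes for YY1 (0.112 and 0.109) and NRF1 (0.109 and 0.110). For the ETS motif the medians were 0.042 with and 0.122 without it. These matches are letters in a window and were not tested as binding sites. The YY1 motif contains ATG, and whether matches after the gene's start fall on a start of translation was not tested.

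Fold changes of the members were small and mostly positive. Values are log2 expression as deposited, so a difference of 1 is a doubling, and fold changes are shYTHDF3 minus shControl. The median log2 fold change of the 73 members was 0.10, against 0.004 over all tested genes. Of the members 54 (74.0%) had a positive value, against 50.8% of all tested genes. With limma and Benjamini-Hochberg adjustment over all 12755 genes, 0 members passed an adjusted p of 0.05 in either direction, where 0.753% of all genes did (0.0862% higher and 0.666% lower). The smallest adjusted p of a member was 0.129, that of MRPS7 from limma. At an unadjusted p under 0.05, 9 members (12.3%) were higher, against 6.24% of all genes, and 1 (1.37%) was lower, against 8.48%. The arrays of the groups did not overlap for 32 members that were higher (43.8%, against 22.6% of all genes) and for 9 that were lower (12.3%, against 22.8%). These shares describe the list and are not a test of it.

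**Figure D1:**
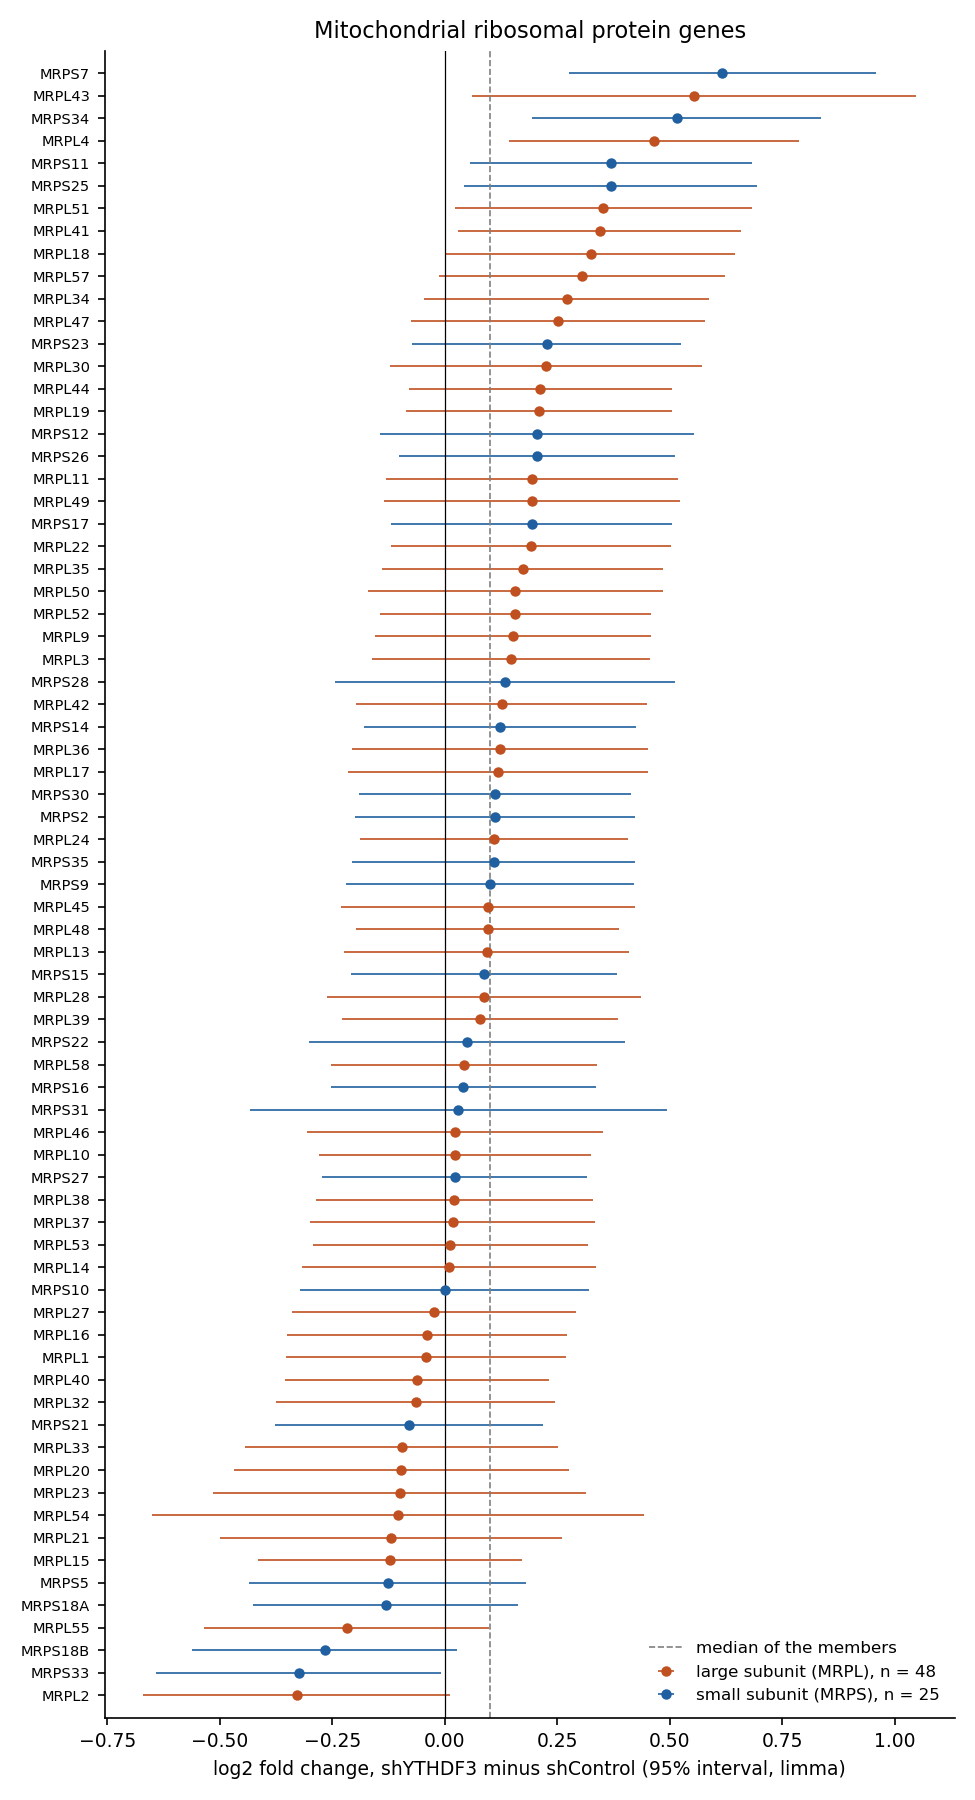
Log2 fold change of each of the 73 members, shYTHDF3 minus shControl, with its 95% interval from limma, sorted from highest to lowest and coloured by the subunit of the symbol. The values run from 0.62 for MRPS7 to -0.33 for MRPL2, large and small subunit genes are mixed along the whole range, and 9 intervals lie above 0 and 1 below.

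The members' differences were smaller than those that passed with 2 arrays per group. The standard errors (SE) of the members' log2 fold changes ran from 0.12 to 0.23 with a median of 0.13, so the 95% intervals reached a median of 0.32 to either side. Among genes within the members' range of level, 93 passed, and the smallest passing difference was 0.78 in size, above that of every member. The intervals of 72 members lay within -1 and 1, and those of 44 within -0.5 and 0.5. Permuting the 4 array labels gives no 2-sided p under 0.333, and limma's p-values borrow their spread from all genes.

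MRPS7, a protein of the small subunit head with a bacterial homologue, had 8.65 and 8.36 in the shYTHDF3 arrays and 7.87 and 7.90 in the shControl arrays. Both knockdown values lay above both control values, but the SD of the 2 knockdown values was 0.20. Without shYTHDF3 replicate 1 the difference was 0.47, and without shYTHDF3 replicate 2 it was 0.76. The log2 fold change was 0.62 (SE 0.15, 1.53-fold) with an adjusted p of 0.129 from limma. MRPS34, a mitochondria-specific protein of the small subunit, had 8.50 and 8.32 in the shYTHDF3 arrays and 7.96 and 7.82 in the shControl arrays. Its groups were also apart, by 0.51 (SE 0.14, 1.43-fold), with an adjusted p of 0.159 from limma. With a variance model that follows intensity, both passed, at adjusted p-values of 0.028 and 0.041 from limma, and were the 2 members that did. That model called 0.808% of all genes as higher and 2.13% as lower.

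MRPL43, a mitochondria-specific protein of the large subunit, had 5.21 and 5.85 in the shYTHDF3 arrays and 4.91 and 5.04 in the shControl arrays. The groups did not overlap, but the 2 knockdown values had an SD of 0.45. The difference between the groups of 0.55 had the wide SE of 0.21. Without shYTHDF3 replicate 2 it was 0.24, and without shYTHDF3 replicate 1 it was 0.87. MRPL4, whose bacterial homologue lines the tunnel through which the new chain leaves, had 8.07 and 7.99 in the shYTHDF3 arrays and 7.46 and 7.67 in the shControl arrays. Its difference of 0.47 (SE 0.14, 1.38-fold) had an adjusted p of 0.189 from limma.

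MRPS11, a small subunit protein with a bacterial homologue, had 7.61 and 7.44 in the shYTHDF3 arrays and 7.11 and 7.20 in the shControl arrays. MRPS25, which is specific to mitochondria, had 7.09 and 7.33 in the shYTHDF3 arrays and 6.86 and 6.83 in the shControl arrays. Both differed by 0.37 on the log2 scale with groups that did not overlap, and neither passed (adjusted p = 0.271 and 0.291, limma). MRPL51 and MRPL41, both mitochondria-specific large subunit proteins, differed by 0.35 and 0.34. MRPL51 had 6.23 and 6.35 in the shYTHDF3 arrays and 5.83 and 6.05 in the shControl arrays. MRPL41 had 5.29 and 5.33 in the shYTHDF3 arrays and 4.88 and 5.06 in the shControl arrays. Neither gene's groups overlapped, and the adjusted p-values were 0.315 and 0.303 from limma. MRPL18, named after its values were seen, was the remaining higher member at an unadjusted p under 0.05, differing by 0.32 (adjusted p = 0.335, limma).

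At the other end stood MRPL2, whose bacterial homologue lies near the peptidyl transferase centre. It had 8.90 and 9.19 in the shYTHDF3 arrays and 9.36 and 9.39 in the shControl arrays, which is lower by 0.33 on the log2 scale (SE 0.15; limma, adjusted p = 0.354). Both knockdown values lay below the control values, but the SD of the 2 knockdown values was 0.20. MRPS33, a mitochondria-specific small subunit protein, had 4.28 and 4.13 in the shYTHDF3 arrays and 4.46 and 4.60 in the shControl arrays. Its difference was also -0.33, and it was the 1 lower member at an unadjusted p under 0.05 (adjusted p = 0.330, limma). Its mean of 4.37 is a weak signal, where differences are compressed. MRPL55, a protein of the large subunit's central protuberance, had 5.75 and 5.56 in the shYTHDF3 arrays and 5.90 and 5.85 in the shControl arrays, a difference of -0.22 with no overlap (adjusted p = 0.502, limma). MRPS5, MRPL15 and MRPL21 had differences of -0.13, -0.12 and -0.12, and only in MRPL21 did the groups overlap.

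**Figure D2:**
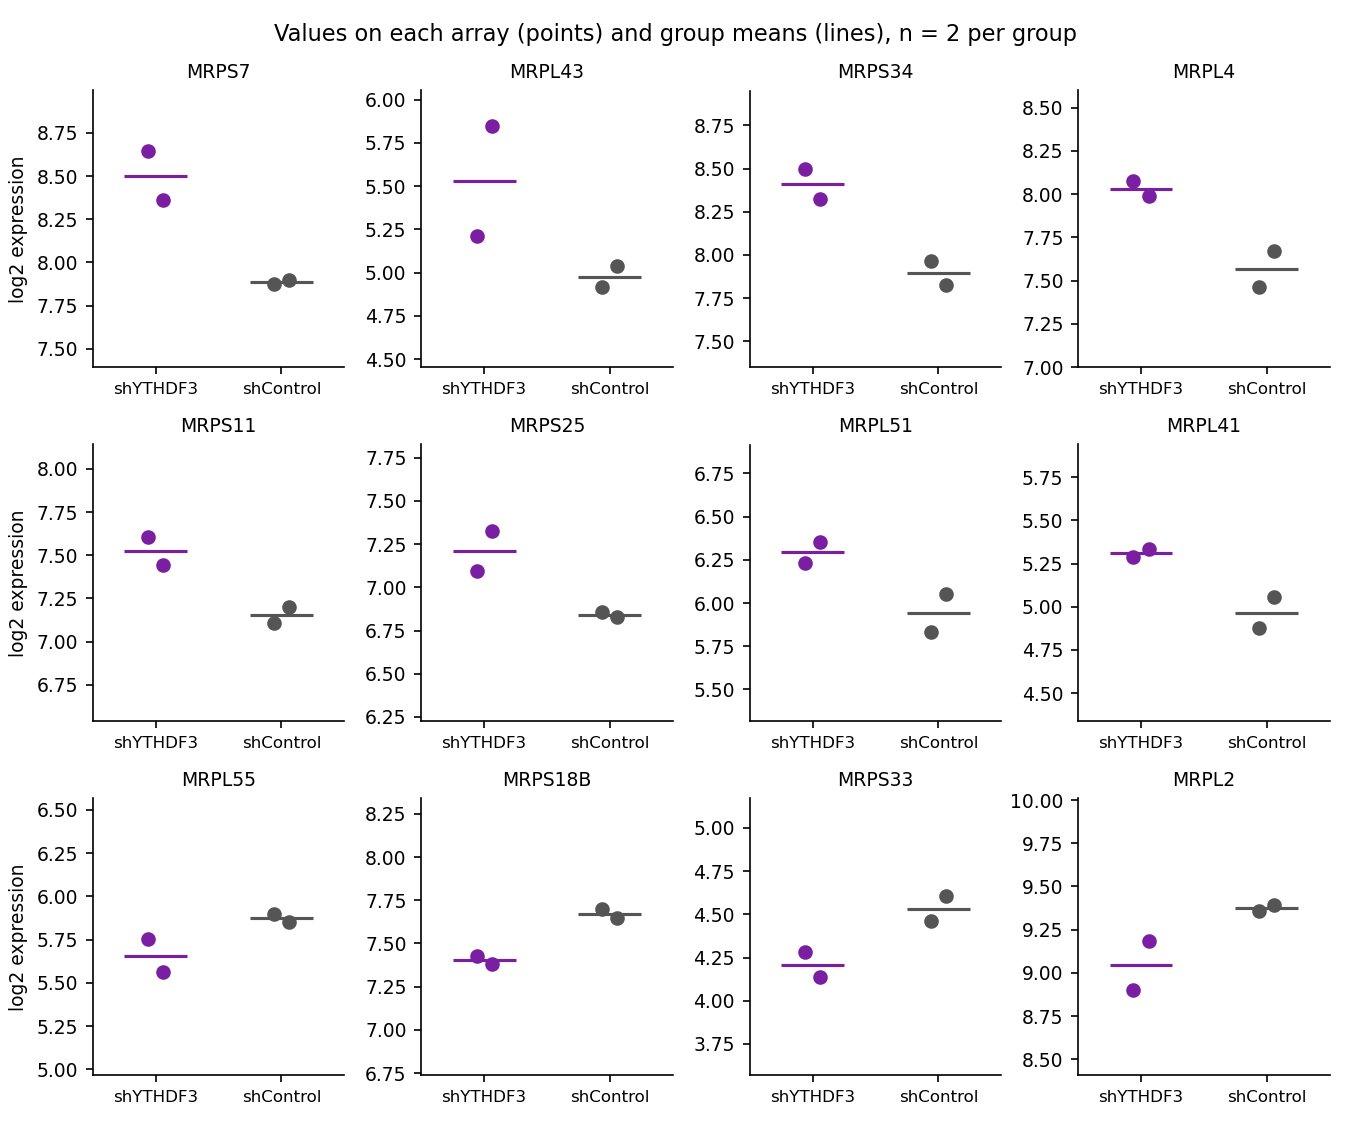
Log2 expression of the 8 highest and 4 lowest members by fold change on each array, with shYTHDF3 left of shControl, points for arrays and lines for group means (n = 2 per group). Each panel spans the same height on the log2 scale. The 2 groups do not overlap in any of the 12, although the shYTHDF3 arrays of MRPL43, MRPS7 and MRPL2 lie far apart. The genes were picked by fold change, which favours groups that do not overlap. Over all tested genes, 22.6% were higher and 22.8% lower without overlap.

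The S18 family is the place where the mitoribosome carries paralogs of 1 bacterial protein, and its measured members both lay on the lower side. MRPS18B had 7.43 and 7.38 in the shYTHDF3 arrays and 7.70 and 7.65 in the shControl arrays, a difference of -0.27 (SE 0.13, adjusted p = 0.379 from limma). MRPS18A had 7.56 and 7.57 in the shYTHDF3 arrays and 7.67 and 7.72 in the shControl arrays, a difference of -0.13 (adjusted p = 0.686, limma). In neither gene did the groups overlap, but the intervals (-0.56 to 0.03 and -0.43 to 0.16) include 0. MRPS18B is named by 7 probe sets that hold the same values, so it counts as 1 measurement. MRPS30, the other gene with a small subunit symbol and a large subunit product, differed by 0.11 with no overlap (adjusted p = 0.751, limma).

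Large and small subunit genes had nearly the same median. The median log2 fold change was 0.095 for the 48 MRPL genes and 0.108 for the 25 MRPS genes, a difference of -0.013. Taken for each pair of 1 knockdown and 1 control array, that difference ran from -0.076 to 0.063, so its sign was not settled. Without shControl replicate 2 the small subunit's median was 0.043 and the difference 0.054. With genes assigned by structure (50 large, 23 small) the medians were 0.095 and 0.108 again. Positive values were found in 35 of 48 MRPL genes and 19 of 25 MRPS genes. Non-overlapping arrays were found in 21 higher and 4 lower MRPL genes, and in 11 higher and 5 lower MRPS genes. As shares these were 43.8% and 8.33% of MRPL genes and 44.0% and 20.0% of MRPS genes, against 22.6% higher and 22.8% lower of all genes, so the share of lower MRPS genes was near that of all genes. The SD of the fold changes was 0.17 among MRPL and 0.22 among MRPS genes. By symbol, the MRPS genes thus held the member with the highest value as well as 3 of the 5 lowest. The latter included MRPS18A, whose product sits in the large subunit.

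Genes grouped by origin also had similar medians. In the large subunit the median was 0.093 for 29 genes with a bacterial homologue and 0.095 for 19 specific to mitochondria. Positive values were less evenly spread, at 18 of 29 and 17 of 19. In the small subunit the medians were 0.112 for 13 genes with a bacterial homologue and 0.079 for 10 specific to mitochondria, with 10 and 8 positive. The group of mitochondria-specific small subunit genes included MRPS34, MRPS33 and MRPS18B, a paralog of a bacterial protein that has a site of its own, and had the widest spread of the 4, an SD of 0.26.

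By position, the polypeptide exit site had the highest median of the 3 regions described, 0.114 over 6 genes. Its members MRPL47, MRPL22, MRPL17, MRPL24 and MRPL45 had values of 0.25, 0.19, 0.12, 0.11 and 0.095, and MRPL23 had -0.10. MRPL45 helps to hold the mitoribosome at the inner membrane, where its products are inserted. MRPL23 had the lowest mean signal of all members (3.25), close to the medians of the arrays over all probe sets, at most 3.22. The 7 genes of the central protuberance had a median of 0.021 and ran from 0.32 for MRPL18 to -0.22 for MRPL55. The 4 measured genes of the stalk, which recruits translation factors, had a median of 0.017. Of these MRPL11 had 0.19, MRPL10 0.02, MRPL53 0.01 and MRPL54 -0.10, and none passed. MRPL58, a peptidyl-tRNA hydrolase that frees stalled chains and is built into the large subunit, differed by 0.04.

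**Figure D3:**
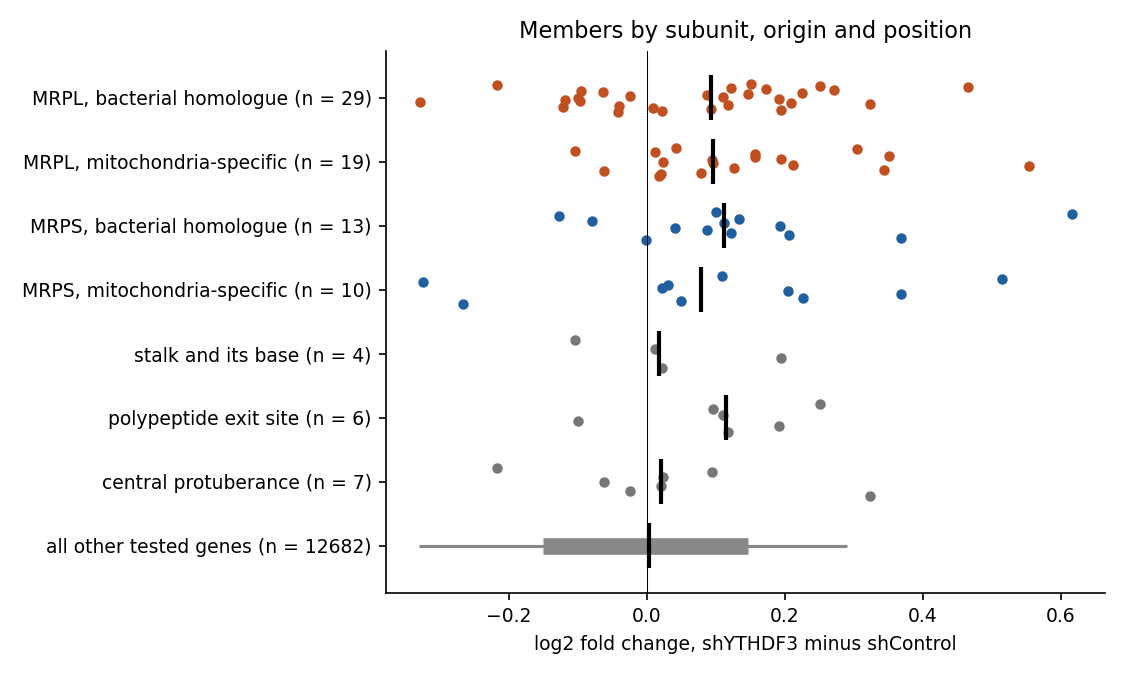
Log2 fold change of the members by subunit, origin and position (points are genes, black bars are medians). For all other tested genes the thick bar spans the quartiles and the thin line the 10th to 90th percentile. The 7 groups drawn have medians between 0.017 and 0.114, against 0.003 for the other genes.

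The members' signals lay higher than those of most genes, with a median mean level of 7.18 against 4.97 over all tested genes, so each was also set against genes of similar level. For each member the median fold change of the 200 nearest other genes in mean level was taken. These medians ran from -0.038 to 0.064. The members lay a median of 0.081 above them, and 54 of 73 lay above. The median member exceeded 67.0% of its neighbours. MRPS7, MRPL43 and MRPS34 exceeded 99.0%, 98.5% and 98.0% of theirs. Of the 73 members, 9 exceeded over 90% of their neighbours, and MRPL2 was the 1 that exceeded under 10%. By construction about 10% of genes fall beyond each of these bounds, so the upper count is near that share. The shift was 0.089 for MRPL and 0.081 for MRPS genes. Across members, level and fold change had a Pearson correlation of 0.097 over 73 genes that share the same 4 arrays.

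**Figure D4:**
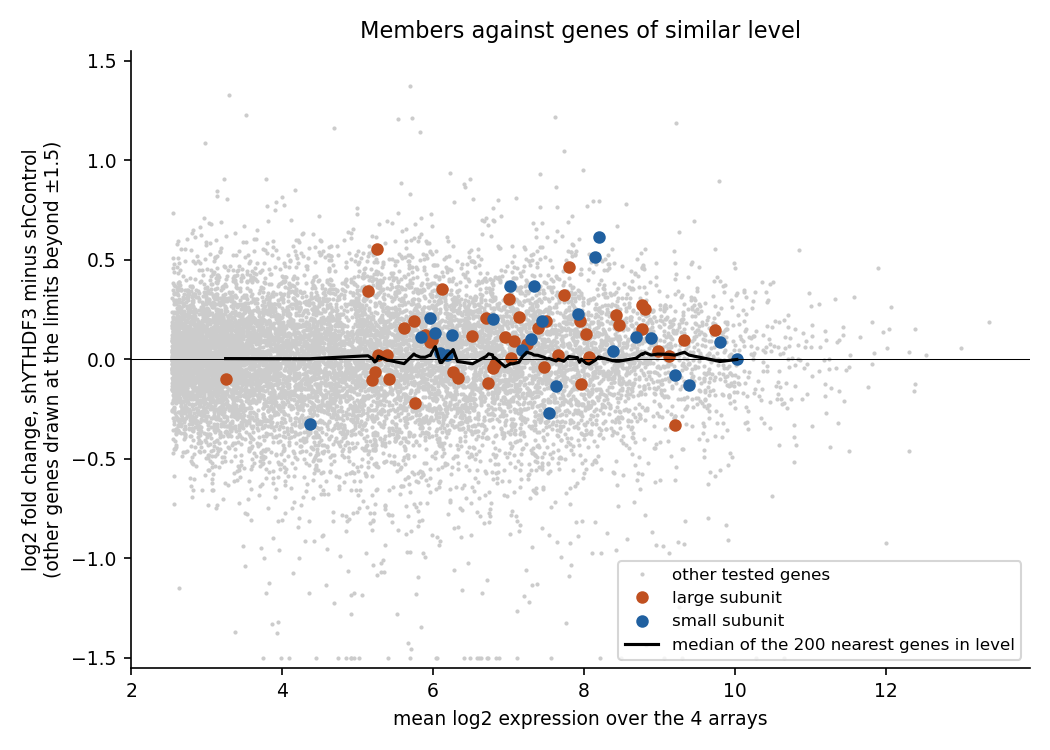
Log2 fold change against mean log2 expression for the members (orange large, blue small subunit) and all other tested genes (grey), with the median of the 200 nearest genes in level as a black line. The line stays between -0.038 and 0.064 over the members' range, and most members lie just above it.

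The members' fold changes had an SD of 0.19, against 0.30 for the 9895 other genes within the same range of level. Those genes share the outer range only and were not matched in level, with a median of 5.62 against 7.18 for members. The spread between replicates would by itself give differences of 0.12 (root mean square) for members and 0.18 for those genes. Between the arrays of a group, the SD of the members' differences was 0.18 for shYTHDF3 and 0.18 for shControl, against 0.25 and 0.25 for the other genes in the range. Both arrays of a group lay on the same side. As a median deviation from each gene's mean over the 4 arrays, the members stood at 0.024 and 0.061 in the shYTHDF3 arrays and at -0.043 and -0.048 in the shControl arrays. Other genes in the range stood between -0.011 and 0.008 on all 4. In the 4 pairs of 1 knockdown and 1 control array, the members' median ran from 0.076 to 0.113, with 48 to 53 of 73 positive. The pairs share arrays and are not independent.

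Further probe sets of members with values of their own gave the same direction, but in each of them the groups overlapped. MRPS16 had a second probe set at 0.16 beside the chosen one at 0.04, MRPS2 one at 0.18 beside 0.11, and MRPL44 one below the filter at 0.10 beside 0.21. The members with the brightest probe sets, MRPS10, MRPS15 and MRPL3, had differences of 0.00, 0.09 and 0.15. Of the 5 pseudogene and antisense genes left out, MRPL20-AS1 had 4.03 and 4.02 in the shYTHDF3 arrays and 3.43 and 3.52 in the shControl arrays. That is a difference of 0.55 (adjusted p = 0.120, limma), while MRPL20 itself differed by -0.10. MRPL45P2 and MRPS31P5, copies of MRPL45 and MRPS31, differed by 0.49 and -0.34 where MRPL45 and MRPS31 differed by 0.095 and 0.03. Neither copy passed (SE 0.27 and 0.15, adjusted p = 0.438 and 0.361, limma), and the groups overlapped for MRPL45P2 but not for MRPS31P5. Whether probe sets of a gene also bind its copies was not tested.

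Other genes of mitochondrial gene expression did not share one direction. Of 22 tested assembly factors of the mitoribosome, 0 passed with limma and 8 were positive, with a median of -0.034. By unadjusted p the first were NOA1, MPV17L2 and GTPBP6, at -0.36, -0.27 and -0.41. At an unadjusted p under 0.05 there was 1 lower (4.55%) and 0 higher, where 8.48% of all genes were lower and 6.24% higher. Of 13 mitochondrial translation factors 0 passed and 5 were positive (median -0.059), with MRRF, the ribosome recycling factor, at -0.40, and with 0 at an unadjusted p under 0.05. Among 11 genes of mitochondrial transcription and RNA processing 0 passed and 10 were positive (median 0.065). ELAC2, which trims the ends of tRNAs, stood at 0.31. It was the 1 higher gene (9.09%) at an unadjusted p under 0.05 and 0 were lower, against 6.24% and 8.48% of all genes. Of 22 genes listed for charging mitochondrial tRNAs 4 were tested, with KARS1, GATB and QRSL1 at 0.21, 0.03 and -0.01. GATB and QRSL1 are subunits of an amidotransferase and not synthetases. The products of KARS1 and GARS1 serve both cytosol and mitochondria, so no synthetase of mitochondria alone was tested. GARS1 fell by 0.83 (adjusted p = 0.046 from limma). It did not pass with any 1 array left out (adjusted p from 0.142 to 0.371, limma), with array medians set equal (0.0572) or with no filter on low values (0.0615). The subunits DAP3, PTCD3 and CHCHD1, which carry other symbols, had 0.01, 0.10 and 0.19.

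The respiratory chain, cytosolic ribosome and import lists had positive medians, as the members had. Only 18 of 77 listed nuclear-encoded genes of the respiratory chain and ATP synthase were tested. No symbol among them started with NDUF or SDH, so the list does not cover the whole chain. These 18 genes had 15 positive and a median of 0.153. Of these 0 passed or had an unadjusted p under 0.05 with limma, and ATP5MJ and COX8A stood at 0.32 and -0.33. Cytosolic ribosomal proteins had 40 of 52 positive and a median of 0.069, with RPL39 and RPS26 at 0.69 and 0.52. Of the 52, 0 passed. At an unadjusted p under 0.05, 2 (3.85%) were higher and 0 lower, against 6.24% and 8.48% of all genes. Mitochondrial import genes had 19 of 28 positive and a median of 0.094. With limma 0 passed, 7 were higher and 2 lower at an unadjusted p under 0.05, and TOMM40, the channel of the outer membrane, stood at 0.64 (adjusted p = 0.096). Of 4 tested regulators of mitochondrial biogenesis, ESRRA, YY1 and NRF1 had 0.49, 0.38 and 0.30 and MYC had -0.63. None of the 4 passed with limma. At an unadjusted p under 0.05, 2 (50%) were higher and 1 (25%) lower, against 6.24% and 8.48% of all genes. In the list of mitochondrial stress and proteostasis, 3 of 16 fell and 0 rose (limma), where 0.666% of all genes fell and 0.0862% rose. At an unadjusted p under 0.05, 7 (43.8%) were lower and 1 (6.25%) higher, against 8.48% and 6.24% of all genes. The 1 higher gene was ATF5, at 0.60 (adjusted p = 0.207, limma). The RNA of ATF4, in the same list, differed by 0.009 (adjusted p = 0.988, limma). The 3 that fell were DDIT3, TRIB3 and ASNS, stress genes induced through ATF4, with log2 fold changes of -3.07, -1.75 and -1.32 and adjusted p-values of 0.000624, 0.0102 and 0.0101 from limma. Without shControl replicate 1 the fold changes were -3.18, -1.94 and -1.30 (adjusted p = 0.0850, 0.192 and 0.281, limma). Without shControl replicate 2 they were -2.95, -1.57 and -1.34 (adjusted p = 0.120, 0.239 and 0.233, limma), so 0 of 3 passed in either fit while the fold changes stayed of like size. TRIB3 also missed without shYTHDF3 replicate 1 (-1.57, adjusted p = 0.0644, limma), and ASNS without shYTHDF3 replicate 2 (-1.21, adjusted p = 0.0713, limma).

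**Figure D5:**
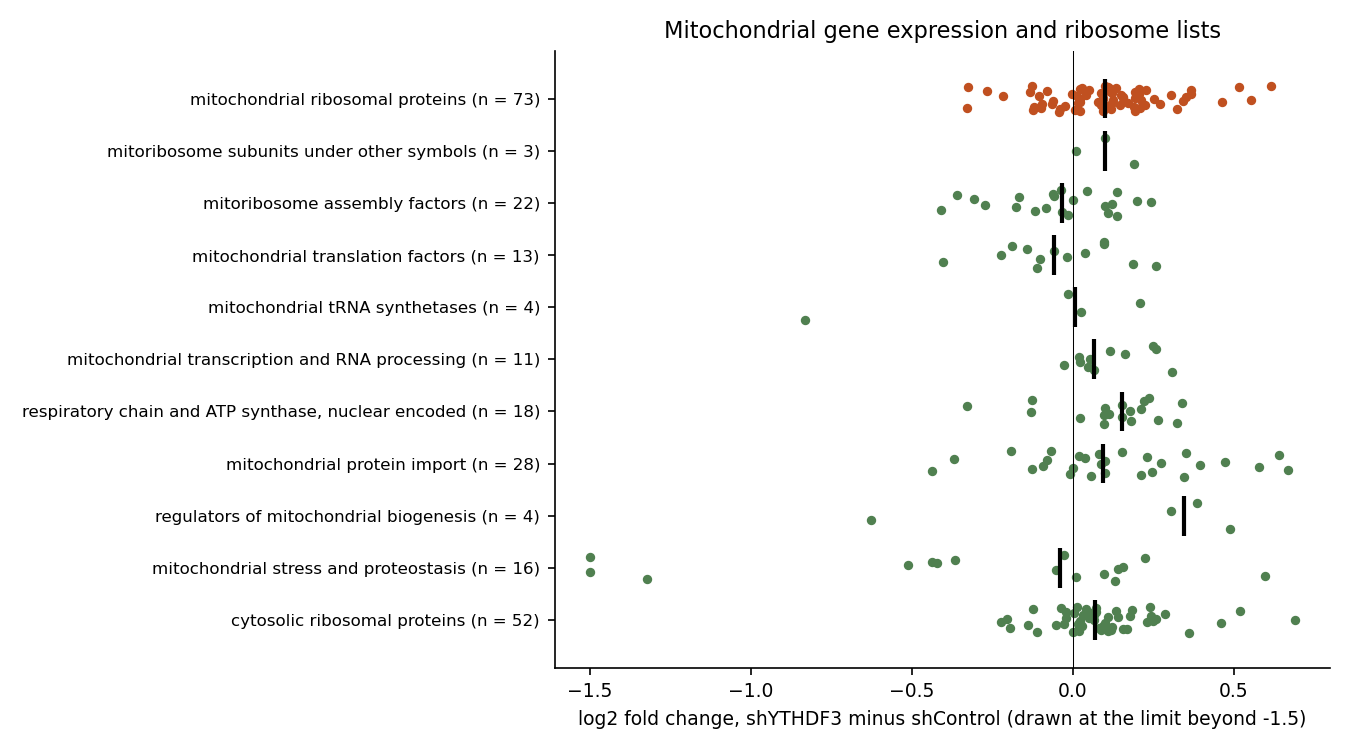
Log2 fold change of the members and of 10 related lists (points are genes, black bars are medians, the lowest values drawn at the axis limit). The members and the respiratory chain, import and cytosolic ribosome lists have medians between 0.069 and 0.153, while assembly and translation factors have medians below 0.

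Facts of the whole series bear on these values as follows. Across the tested genes the correlation was 0.992 within either group and 0.986 to 0.987 between groups. Of 7 markers of the mesenchymal type of this line 6 were measured, from 5.89 to 12.3 in shYTHDF3 and from 7.38 to 12.4 in shControl arrays. The lowest, FN1 (fibronectin), had 6.09 and 5.68 in the shYTHDF3 arrays and 7.37 and 7.40 in the shControl arrays. It fell by 1.499 on the log2 scale (adjusted p = 0.0121, limma), more than any member differed. It did not pass without either shControl array or without shYTHDF3 replicate 2 (adjusted p = 0.0572 to 0.300, limma). ESR1 and PGR, which define the luminal type, stood at 2.91 and 2.68 in shYTHDF3 and at 2.84 and 2.66 in shControl arrays, close to the filter value of 2.54. Other luminal or epithelial markers were higher: KRT18 had 8.96 in shYTHDF3 and 8.45 in shControl arrays, EPCAM 6.70 in both, and KRT19 6.37 in shYTHDF3 and 6.77 in shControl arrays. The 9 luminal or epithelial markers measured of 10 had a median of 4.64 in shYTHDF3 and 4.60 in shControl arrays. Of 9 leukocyte, endothelial and stromal markers 3 were measured, with PECAM1 and VWF at 2.50 and 2.74 in shYTHDF3 and at 2.63 and 3.08 in shControl arrays. The third, CD68, a lysosomal protein of many cells, stood at 10.5 in shYTHDF3 and 10.7 in shControl arrays. The part of other cell types in the results was not tested. In bulk RNA, fewer cells of a type and less RNA per cell cannot be told apart.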

How the data were processed

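The deposited table holds log2 expression values, 1 row per probe set and 1 column per array, which the authors made with RMA per the submitters' processing notes (version, settings and genome build not given in the sources used here). This normalizes between arrays, which removes array-wide shifts, and it compresses weak signals. Arrays give no read depth; their number limits the precision. Of 53617 probe sets, 16098 had 1 symbol in the platform annotation (updated through Entrez identifiers, 0 changed). The probe set of highest mean stood for a gene, and genes under the 30th percentile of mean level (2.54) were left out. Groups, read from the titles, were set against each other in R 4.3.3 with limma 3.58.1 (lmFit, eBayes, 2-sided, no covariates, Benjamini-Hochberg over 12755 genes), tested on simulated data. Medians were computed with Python 3.11.15.

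Members and lists were chosen with earlier results of these data known, so no list is tested. Named genes followed a rule: members past the threshold, the 8 highest and 8 lowest fold changes, the 3 brightest and 3 dimmest probe sets, MRPS18A, MRPS18B and MRPS30, and up to 3 genes of smallest p per list. Members and listed genes named beyond this rule were chosen after their values were seen. Promoters are from RefSeq (GRCh38.p14); 65 of 73 members matched. Alternatives covered filter, probe set rule, normalization, variance model, replicate block, threshold, subunit assignment, number of neighbours and leaving out each array.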

Additional observations from a re-analysis of the deposited data

How the results depend on the processing

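The members' median stayed positive under the alternatives run, but the sign of the difference between subunits changed. With array medians set equal over tested genes, the members' median was 0.134 and that of the large subunit 0.129. The difference of large minus small was 0.0087 after cyclic loess and 0.0077 after a second quantile normalization, against -0.013 as reported. With 1 array left out in turn it ran from -0.026 to 0.054. In the same fits the members' median ran from 0.076 to 0.101, the small subunit's from 0.043 to 0.113 (lowest without shControl replicate 2), the large subunit's from 0.080 to 0.098 and the share of positive members from 68.5% to 75.3%. The cause of these moves was not tested. The shift from genes of similar level ran from 0.068 to 0.108 over all alternatives. The number of members called was 2 when the variance could follow intensity and 0 under every other alternative, among them robust variance, an adjusted p under 0.10 and each array left out. Of 21 named members under 13 settings, 265 of 273 values kept their direction and side of the threshold. MRPS7 and MRPS34 passed with the trend. MRPL21 ran from -0.314 to 0.075 and MRPL23 from -0.279 to 0.077 with 1 array left out, and MRPS10 from -0.084 to 0.082 (0.033 with array medians set equal). With shYTHDF3 replicate 1 left out MRPL2 was -0.187, and with replicate 2 of that group left out it was -0.472. Without shYTHDF3 replicate 2, MRPL55 was -0.121 and MRPS15 0.054. MRPL3 was 0.229 and MRPS5 -0.060 without shControl replicate 1, and 0.064 and -0.195 without shControl replicate 2. MRPS30 was 0.063 without shControl replicate 2 and 0.073 without shYTHDF3 replicate 1. With the replicate number as a block 0 members were called and the median was 0.10, while GARS1, ASNS and FN1 did not pass (adjusted p = 0.166, 0.10 and 0.109, limma) and DDIT3 and TRIB3 did (0.0229 and 0.0497). Same-numbered arrays had a correlation of 0.043 in their deviations from group means, and with 2 numbers this does not show that they are paired. With either control left out, the spread of the remaining control is taken from the knockdown pair. Signals near the array medians, such as that of MRPL23, limit what can be seen.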
